A study of Homo sapiens with 2 samples.

Results

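The interactions described here are those of 7 leukocyte integrin genes, ITGA4, ITGA5, ITGA6, ITGAL, ITGB1, ITGB2 and ITGB7, in a TCF3::HLF-HiChIP of leukemia cells. They were chosen by position in the list of significant interactions: an interaction was taken if either of its 5-kb bins lay within 50 kb of the body of one of the genes in GENCODE release 44. This gave 53 of the 49245 listed interactions, and all 7 genes had at least 1, beside 83.9% of all protein-coding genes. In the HiChIP, chromatin was enriched by immunoprecipitation, and DNA ends held together in it were then ligated. It was made from HAL-01, a t(17;19) B cell leukemia line that expresses the fusion TCF3::HLF. The cells carried Cas9GFP and a knockout of wild-type TCF3 (wt-TCF3 KO), obtained with an sgRNA and expanded from colonies grown at limiting dilution (how many clones were used is not given in the sources used here), so that an antibody against E2A, the product of TCF3, precipitates the fusion. There was a single condition with 2 replicates, which the authors merged before interaction calling. Each interaction therefore has 1 value and no replicate error, and no comparison between conditions was possible. Because the list itself chose the interactions, their numbers and counts are given as a description, with no test.

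Integrins are adhesion receptors made of an alpha and a beta subunit, and the pairing sets the ligand. The alpha subunit encoded by ITGA4 pairs with that of ITGB1 to bind VCAM1 and fibronectin, and with that of ITGB7 to bind MADCAM1 in the gut. Hematopoietic progenitors and leukemic B cell precursors use the first of these receptors to attach to the stroma of the bone marrow. ITGA5 and ITGA6 also pair with ITGB1, as receptors for fibronectin and laminin. ITGAL and ITGB2 form the receptor LFA-1, which binds the ICAM proteins on other cells.

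ITGA4 had by far the strongest contact of the 7 genes. The bin with its transcription start, chr2:181455001-181460000, was joined to the bin chr2:181305001-181310000 in the noncoding gene LINC01934, 150 kb upstream, with a contact count of 235 (exact Poisson 95% interval, 206 to 267). The contact count is the number of read pairs that join the 2 bins. In the other 6 genes the largest contact count was 59, in both ITGA5 and ITGB2, and 32 of the 53 interactions had a count from 20 to 40.

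Motif sites beside 1 end of this contact and the promoter at its other end are shown first. The bin in LINC01934 held no exact HLF motif, searched as TTACGTAA or TTATGTAA on either strand. The bins on either side of it, which belong to the same merged anchor, chr2:181300001-181315000, held 3 sites. The nearest were 588 bases before the bin and 321 bases after it. With 1 bin on each side included, 63.5% of all anchor bins (the bins of the listed interactions) held a motif. The 3 sites are printed from hg38 on the strand that reads TTATGTAA, with the motif in capitals and 15 bases on each side.
ITGA4 upstream anchor, first site, chr2:181304391-181304428, plus strand: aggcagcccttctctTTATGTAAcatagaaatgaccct
ITGA4 upstream anchor, second site, chr2:181310306-181310343, minus strand: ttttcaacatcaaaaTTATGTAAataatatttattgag
ITGA4 upstream anchor, last site, chr2:181312113-181312150, minus strand: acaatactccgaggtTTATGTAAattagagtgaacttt
The other end of the contact holds the promoter of ITGA4. The RefSeq promoter (GRCh38.p14, chr2:181457136-181457435, plus strand) is printed 5′ to 3′ with the 50 bases from the RefSeq transcription start, 181457386, in capitals. GENCODE places the start of the gene at 181457202.
ITGA4 promoter: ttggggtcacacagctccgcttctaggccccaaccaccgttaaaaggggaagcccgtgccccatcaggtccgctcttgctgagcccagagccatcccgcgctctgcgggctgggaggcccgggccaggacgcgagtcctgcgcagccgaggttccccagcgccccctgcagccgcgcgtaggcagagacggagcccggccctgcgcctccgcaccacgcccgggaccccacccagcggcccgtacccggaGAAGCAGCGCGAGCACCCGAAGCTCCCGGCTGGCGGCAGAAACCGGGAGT
Its G+C content was 72.3%, and it held neither form of the HLF motif nor CAGGTG, an E-box that TCF3 itself can bind. Of the 35116 promoters of the same length, 0.125% held TTACGTAA, 0.886% held TTATGTAA and 20.6% held CAGGTG on either strand. Promoters of 5 of the 7 genes were in the RefSeq table, those of ITGA4, ITGA5, ITGA6, ITGB1 and ITGB7. None of the 5 held an HLF motif, and that of ITGA6 held 2 copies of CAGGTG.

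The contact of the ITGA4 start stood apart from interactions over the same distance. Among the 494 interactions that span 150 kb it ranked 1, at 9.79 times their median of 24. Among the 6689 interactions within 20% of that distance it ranked 2. Among all 49245 interactions it ranked 7 by contact count, 7 by P value and 36 by sumCC, the sum of contact counts over a merged group of neighboring significant bin pairs. The sumCC was 802, over a merged range of 18 possible bin pairs of which a share of 0.556 was significant. Among 20046 protein-coding genes, ITGA4 ranked 10 by its largest contact count.

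**Figure D1:**
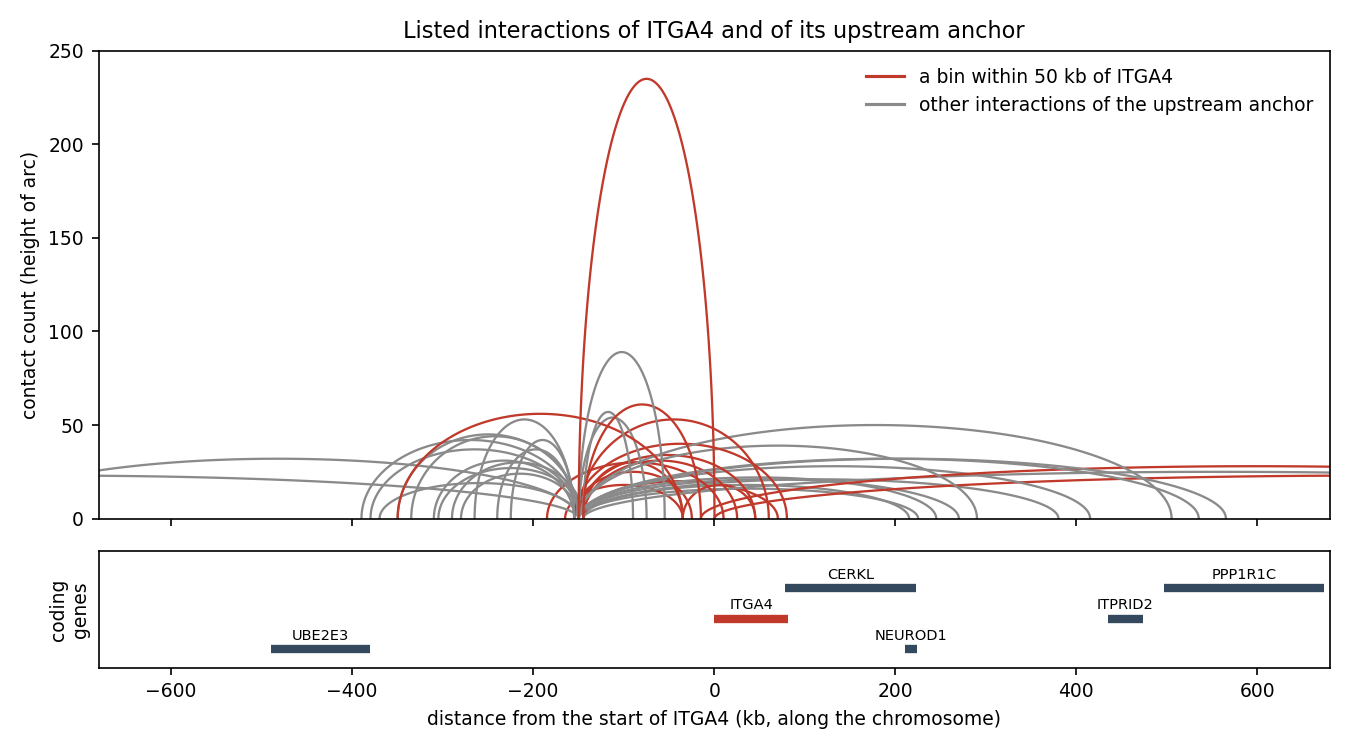
Listed interactions of ITGA4 (red, a bin within 50 kb of the gene) and the other interactions of its upstream anchor (gray), drawn as arcs between bin centers with the contact count as height, against the distance from the ITGA4 start in kb. Protein-coding genes are drawn below, and arcs that leave the window end outside it. The arc with a contact count of 235 joins the anchor with the ITGA4 start, and the next highest of the anchor, 89, ends before the gene.

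The 14 other interactions of ITGA4 were weaker. The next joined the last bin of the same anchor, at 181310001, with the bin chr2:181440001-181445000, 12202 bases before the gene, with a contact count of 61 (46.7 to 78.4). Both bins held 2 HLF motifs. This interaction belongs to the same merged group as the start contact, with the same sumCC of 802. It was followed by a contact count of 56 (42.3 to 72.7) between chr2:181105001-181110000 and chr2:181420001-181425000, which skips the anchor. Inside the gene, the bin at 181515001 had a count of 53 (39.7 to 69.3) with the anchor, the bin at 181500001 a count of 34 and the bin at 181480001 a count of 31. The contacts with counts of 53 and 34 also belong to a single merged group, with a sumCC of 128. The bin at 181535001, which holds the ends of both ITGA4 and CERKL on the opposite strand, had a count of 40 (28.6 to 54.5). The remaining 8 had counts from 18 to 30. The interval of the start contact, 206 to 267, did not overlap that of any other interaction of the gene.

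**Figure D2:**
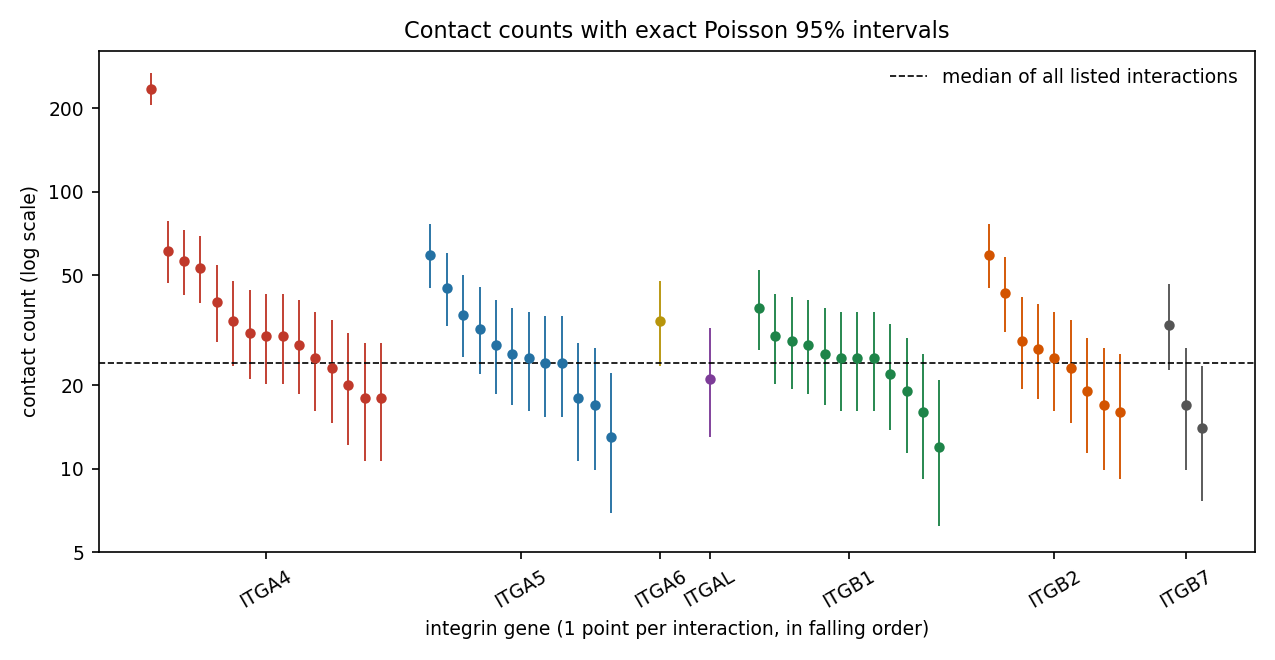
Contact count (log scale) of each of the 53 interactions by gene, with exact Poisson 95% intervals as bars and the median of all listed interactions, 24, as a dashed line. The first interaction of ITGA4 lies above 200, and all others lie at 61 or below.

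The upstream anchor was not exclusive to ITGA4. Its 3 bins took part in 37 listed interactions, 22 of them from the middle bin, which ranked 81 among 53535 anchor bins by number of interactions. Of the 37, 9 reached a bin within 50 kb of ITGA4, with contact counts from 20 to 235. Another 3 ended between the anchor and that window, with counts of 89 (71.5 to 110), 57 and 54. On the far side of ITGA4 there were 11, over distances of 360 to 1405 kb and with counts from 16 to 50. The strongest of these reached PPP1R1C, a regulator of protein phosphatase, at 181960001, with a count of 50 (37.1 to 65.9), the first of 97 interactions at 655 kb. Bins that overlap both CERKL and NEUROD1, a neuronal and endocrine transcription factor, were reached with counts of 18 and 16. Away from ITGA4 there were 14, with a median count of 34.5 and a largest of 53, mostly in LINC01934 and in UBE2E3, a ubiquitin-conjugating enzyme. Toward the ITGA4 start the anchor had 2.64 times the count of its next strongest contact.

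A pair of contacts of ITGA4 spanned more than 1 Mb. The ITGA4 start was joined with chr2:182920001-182925000 in NCKAP1, a subunit of the actin-regulating WAVE complex, over 1465 kb, with a contact count of 23 (14.6 to 34.5). The bin at 181440001 was joined with chr2:182665001-182670000, 46.3 kb from DNAJC10, with a count of 28 (18.6 to 40.5). Both distant bins were busy anchors, with 13 and 16 interactions, and each held 1 motif. The site in NCKAP1 has the form TTACGTAA and is shown as the rarer of the forms.
NCKAP1 anchor contacting the ITGA4 start, chr2:182920270-182920307, plus strand: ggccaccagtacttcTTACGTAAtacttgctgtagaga
Neither count differed from the median of 24 at its distance by more than counting error.

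ITGB1 and ITGB7 encode the beta partners of the ITGA4 product. ITGB1 had 12 interactions, each a single bin pair with no merged neighbor. Their contact counts were 38, 30, 29, 28, 26, 25, 25, 25, 22, 19, 16 and 12, and the interval of the highest (26.9 to 52.2) overlapped those of all but the 2 weakest. The highest joined the bin chr10:32910001-32915000 with chr10:32315001-32320000 in EPC1, a subunit of the NuA4 histone acetyltransferase complex, 595 kb away. The first of these bins holds annotated starts of ITGB1 transcripts but lies inside the gene, away from the RefSeq start at 32958230. The bin chr10:32960001-32965000, near the RefSeq start, had a count of 29, also with EPC1. Of the 12 interactions, 5 reached a single bin within 10 kb of a start of EPC1, chr10:32365001-32370000, which had 18 interactions in the whole list. These 5 fanned out over the ITGB1 locus, to bins from 32890001 to 33045001, with counts from 16 to 29. The anchor in EPC1 held 1 motif. The bin at 32490001 in CCDC7, in contact with ITGB1 with a count of 28 (18.6 to 40.5), held 3, 1 of them TTACGTAA. Both sites are shown because they lie in the far bins of 6 of the 12 contacts.
EPC1 anchor contacting ITGB1, chr10:32367933-32367970, minus strand: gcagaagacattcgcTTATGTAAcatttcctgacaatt
CCDC7 bin contacting ITGB1, chr10:32492765-32492802, plus strand: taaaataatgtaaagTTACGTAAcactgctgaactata
The bin chr10:32940001-32945000 in ITGB1, itself without a motif, took part in 5 of the interactions, among them the weakest, with ZEB1 (a repressor of epithelial genes). Its count was 12 (6.2 to 21.0) and its q-value 0.00966. ITGB1 also had the longest contact of the 7 genes, 2770 kb, with a count of 25.

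ITGB7 had 3 interactions. Their contact counts were 33 (22.7 to 46.3), 17 (9.9 to 27.2) and 14 (7.65 to 23.5). The strongest joined chr12:53150001-53155000, past the end of the gene, with a bin 165 kb away. A single one touched the start of ITGB7, at chr12:53200001-53205000, and reached TNS2, an adaptor of focal adhesions, with the count of 14 (q-value, 0.0063). ITGB7 lies 1.19 Mb from ITGA5 on chromosome 12 and ITGA6 8.95 Mb from ITGA4 on chromosome 2. No interaction joined the windows of either pair, and the latter is beyond the 3 Mb to which interactions were called.

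ITGA5 had as many interactions as ITGB1, 12, but few at the gene itself. Their contact counts were 59, 45, 36, 32, 28, 26, 25, 24, 24, 18, 17 and 13. The strongest (44.9 to 76.1) joined GPR84, past the end of ITGA5, with chr12:54300001-54305000 in COPZ1 and near the start of NFE2, an erythroid and megakaryocytic transcription factor. The same anchor, with 11 interactions in the list, was reached by 4 of the 12. The bin chr12:54445001-54450000, before the ITGA5 start, took part in 6, the strongest with NCKAP1L, the hematopoietic paralog of NCKAP1, at a count of 45 (32.8 to 60.2). A single interaction lay at starts of ITGA5, between chr12:54405001-54410000 and GTSF1, with a count of 26 (17.0 to 38.1). With the window narrowed to 10 kb it was the only one left. An HLF motif was found in 3 of the 12 interactions, each time in a distant bin at 935 kb or more.

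ITGA6 and ITGAL had 1 interaction each. That of ITGA6 joined the bin chr2:172450001-172455000 within the gene with chr2:171820001-171825000 in SLC25A12, a mitochondrial carrier, 630 kb away, with a contact count of 34 (23.5 to 47.5). It ranked 6 among 98 interactions at this distance, and the bin in SLC25A12 took part in 22 interactions, as many as the middle bin of the ITGA4 anchor. It held 2 motifs. That of ITGAL joined a bin in SEPHS2, 27.7 kb before the gene, with chr16:30170001-30175000 near CORO1A, an actin-binding protein of leukocytes. Its contact count was 21 (13.0 to 32.1), below the median of 24 at 270 kb. The bin near CORO1A held a site of the form TTACGTAA.
SLC25A12 anchor contacting ITGA6, first site, chr2:171820405-171820442, plus strand: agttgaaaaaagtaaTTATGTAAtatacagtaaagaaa
SLC25A12 anchor contacting ITGA6, second site, chr2:171822715-171822752, minus strand: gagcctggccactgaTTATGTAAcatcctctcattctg
CORO1A bin contacting the ITGAL flank, chr16:30173224-30173261, plus strand: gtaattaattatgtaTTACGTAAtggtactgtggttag
With a window of 10 kb ITGAL had no interaction, and with 100 kb it had 4.

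ITGB2, which encodes the beta partner of ITGAL, had 9 interactions. Their contact counts were 59, 43, 29, 27, 25, 23, 19, 17 and 16. The strongest (44.9 to 76.1) joined chr21:44945001-44950000 in SLX9, 13.0 kb before ITGB2, with a bin in ADARB1, an RNA-editing adenosine deaminase, 180 kb away, at 2.36 times the median of that distance. ADARB1 was reached by 5 of the 9. A bin just past the end of ITGB2, chr21:44880001-44885000, took part in 5, and 3 of these looped over the gene to bins before its start, with counts of 43, 29 and 25. Hence both bins lay within 50 kb of the gene. None of the 9 interactions held an HLF motif in either bin. ITGB2 was the only one of the 7 genes without one. The interactions of ITGB2 lay between 55 and 270 kb, whereas those of ITGB1 ranged from 95 to 2770 kb.

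**Figure D3:**
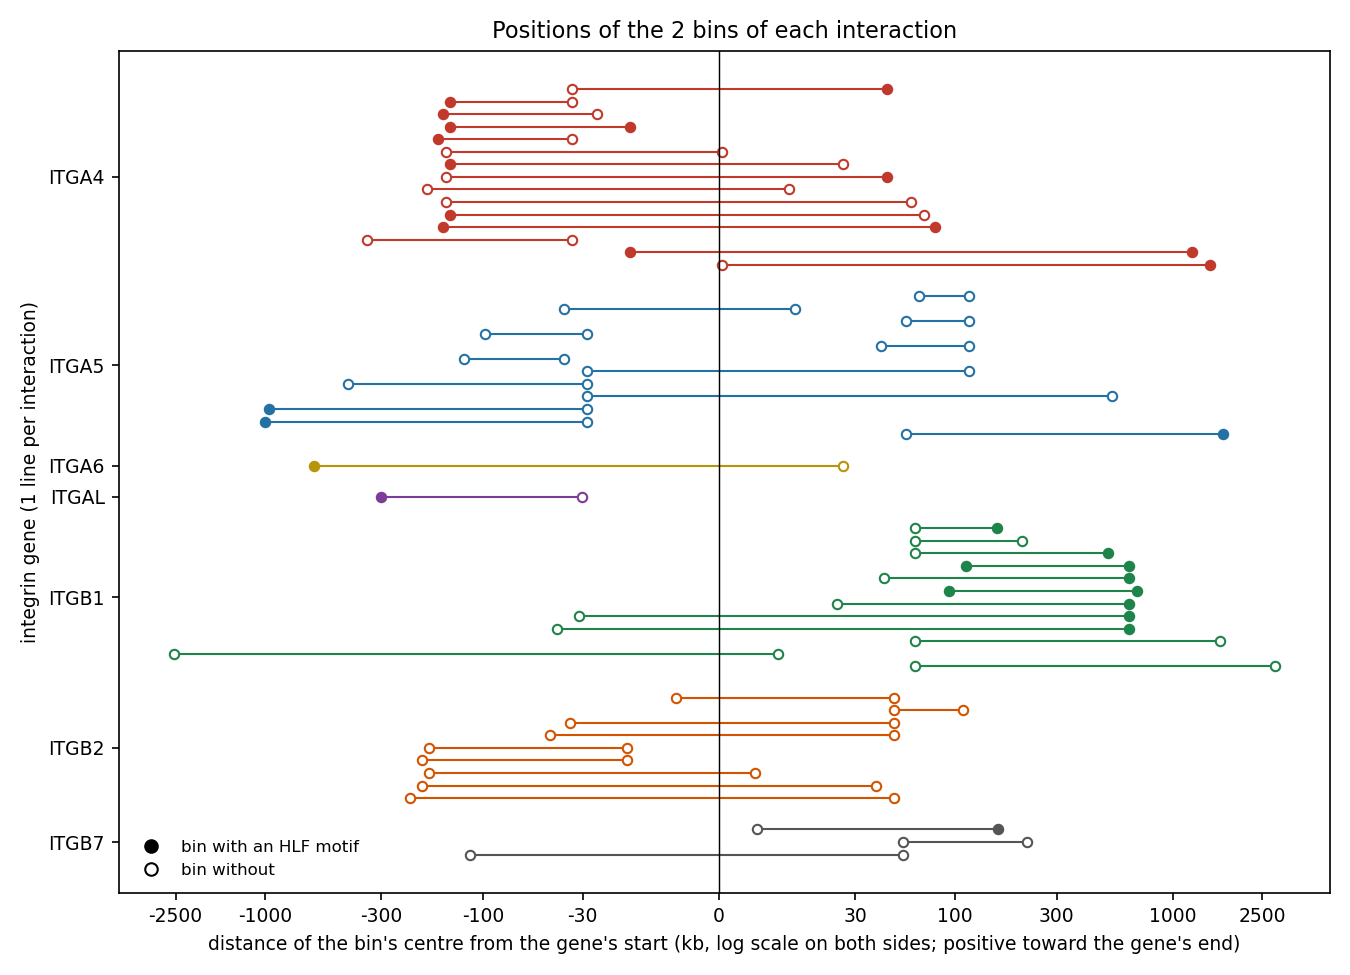
Positions of both bins of each of the 53 interactions, as the distance of the bin center from the gene's start in kb (log scale on both sides, positive toward the gene's end), with bins that hold an HLF motif filled. Filled circles lie mostly at the distant ends for ITGA4 and ITGB1, and ITGB2 has none.

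Across the 7 genes, an HLF motif lay in 1 or both bins of 25 of the 53 interactions (47.2%; Wilson 95% interval, 34.4 to 60.3%), against 66.8% of all listed interactions. The share was 11 of 15 in ITGA4, 8 of 12 in ITGB1, 3 of 12 in ITGA5 and 0 of 9 in ITGB2. The bin next to the integrin gene held a motif in 6 interactions and the far bin in 24. This split was not computed for other genes, so it is not known to be particular to these. Counted by bin, 6 of the 36 bins within the windows (16.7%; 7.87 to 31.9%) and 14 of the 32 others (43.8%; 28.2 to 60.7%) held one, beside 31.5% of all anchor bins. The bins are not independent, since several take part in more than 1 of the interactions.

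By strength, 42 of the 53 interactions had a q-value under 1e-05, beside 66.5% of the whole list. A contact count of at least 2 times the median at the same distance was seen in 6, 4 of them in ITGA4, 1 in ITGA5 and 1 in ITGB2, beside 3.2% of all interactions. In 22 of the 53 the count was below that median. A merged group of more than 1 bin pair was listed for 12, beside 7.69% of the list, and 8 of the 12 belonged to ITGA4. Without ITGA4, 4 of 38 remained. ITGA4 carried 40.8% of the 1721 read pairs counted in the 53 interactions. Of the 68 anchor bins, 6 took part in 10 or more interactions, beside 2.1% of all anchor bins, but a bin with many interactions also has more chances to be joined to a given gene. All 6 were far bins, and they were reached from ITGA4, ITGA5, ITGA6 and ITGB1.

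**Figure D4:**
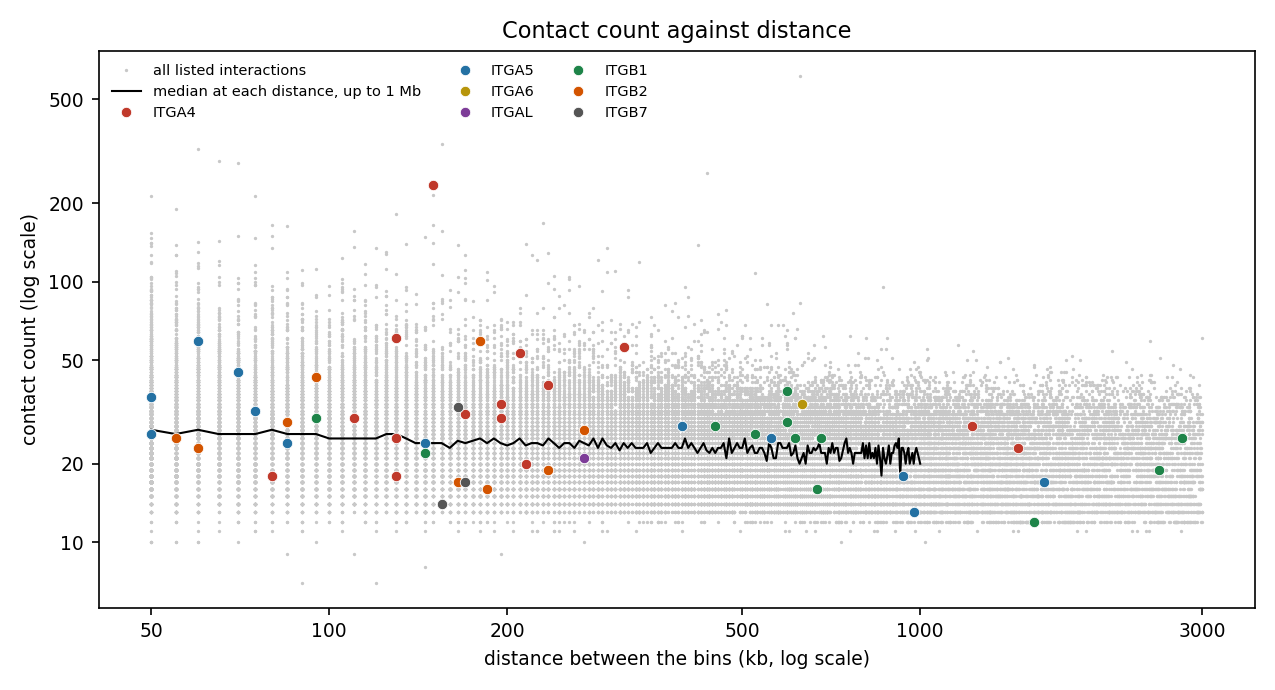
Contact count against the distance between the bins in kb (both log scales) for all 49245 interactions (gray), with the median at each distance up to 1 Mb as a line and the integrin interactions in color. The ITGA4 start contact at 150 kb lies at 9.79 times the median, and the other integrin interactions lie at a count of 61 or below.

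At the starts of the genes, 26 of the 53 interactions had a bin within 10 kb of an annotated transcript start. They fell on ITGB1 (9), ITGA4 (8), ITGB2 (7), ITGA5 (1) and ITGB7 (1). That 5 of the 7 genes had one compares with 54.9% of all protein-coding genes. ITGB1 has 25 annotated start positions and ITGA4 has 11, many of them inside the gene. With the start of the gene record alone the number was 8, and the order changed, with 3 in ITGA4, 2 in ITGB2 and 1 each in ITGB1, ITGA5 and ITGB7. In ITGB2, 5 of the 7 used the bin just past the end of the gene, which lies within 10 kb of the starts of short transcripts near that end.

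By number, ITGA4 ranked 2071 among 20046 protein-coding genes with its 15 interactions, ITGA5 and ITGB1 ranked 2942, ITGB2 ranked 4253, ITGB7 ranked 10003, and ITGA6 and ITGAL ranked 14085, with ties sharing a rank. The median gene had 3. The order of ITGA4, ITGA5, ITGB1 and ITGB2 rests on differences of 3 interactions and depends on the window. Counted per Mb of window or within 50 kb of the gene's start, ITGB1 ranked 4804 and 5027, and around the start ITGB2 ranked 2565. Likeness to ITGA4 was taken as the Euclidean distance in the log2 number of interactions and the log2 largest ratio to the distance median. By it the nearest genes on other chromosomes were ALAD (17 interactions, ratio 6.96), GALNT7 (20, ratio 7.15) and SEPTIN9 (23, ratio 8.96), compared over 15771 genes of this 1 merged library.

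Of 46 other genes of integrin adhesion, 41 had an interaction within 50 kb, beside 83.9% of all protein-coding genes. All 9 adhesion signaling genes had one, from 1 for PARVA to 31 for the focal adhesion kinase PTK2. VCL, which encodes the actin linker vinculin, had 15, and these numbers were not scaled by gene length. Among 12 activators and adaptors 10 had one, including RAP1A and SKAP1 (23 each). None was listed for FERMT3, the kindlin of blood cells, or APBB1IP, which links RAP1 to talin. The ligands had 1 for VCAM1, ICAM1 and ICAM3, 2 for MADCAM1, 5 for FN1 and 9 for ICAM2. The windows of neighboring genes can overlap, so a single interaction may be counted for more than 1 of these genes. Of the 14 other alpha subunits 11 had one, and ITGA2, ITGA2B and ITGA7 had none, and all 5 other beta subunits had one. The leukocyte subunits ITGAM, ITGAX, ITGAD and ITGAE had between 1 and 4. The largest contact counts within 50 kb were those of ITGA9 (67; 51.9 to 85.1), PTK2 (63; 48.4 to 80.6), and ILK and ITGB3, both at 53. That of ITGA9 joined a bin past the end of the gene with a bin in CTDSPL. The bin at ILK also overlaps TAF10 and TPP1. None of the counts reached the 235 of the ITGA4 start.

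The window fixed which interactions were counted. Just outside it for ITGA4 lay an interaction of the same upstream anchor with a bin 52.2 kb before the gene, with a contact count of 89. The outermost inside were 3 interactions of a bin 32.2 kb before the gene, with counts of 56, 30 and 18. For ITGB2 the next one outside, at 53.0 kb, had a count of 42, and the outermost inside were the pair at 13.0 kb, with counts of 59 and 17. Several windows also cover other genes, so that an interaction counted here may lie at the start of a neighbor. No pair of bins of the 53 shared more than 50 31-mers. The pair with 50 was the strongest interaction of ITGB7, and the bins of the ITGAL interaction shared 26. Whether shared sequence affected their counts was not tested. Contact counts were not normalized for coverage or copy number, and the Poisson intervals cover counting error only. Duplicate read pairs were kept, and the intervals treat every read pair as independent, so they can be too narrow even for counting error.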

How the data were processed

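HAL-01 cells with a knockout of wild-type TCF3 were profiled by HiChIP in 2 replicates of a single condition. As the methods describe, the authors trimmed reads with TrimGalore 0.6.6, merged the replicates, aligned to hg38 with BWA-MEM, parsed pairs without deduplication, called MACS2 peaks as reference and ran FitHiChIP on 5-kb bins between 50 kb and 3 Mb apart. The version of FitHiChIP is not given in the sources used here. The contact counts and sumCC were deposited as raw counts, the p-value and q-value (under 0.01) come from the authors' distance and coverage model, and the deposited fraction gives how much of a merged range was significant. Contact counts of all listed interactions sum to 1268490, which covers significant bin pairs only and is not the depth of the libraries.

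Genes came from GENCODE release 44, and 0 bins passed an hg38 chromosome end. An interaction belonged to a gene if a bin lay within 50 kb of its body. Counts were compared with the median over interactions at the same distance. Motifs were exact matches in both strands of a bin. Overlaps, motif search and Poisson intervals were tested on simulated data. No test between groups was made. The genes, lists and rules were chosen with earlier results of these data known. Named were the 7 genes, genes at the far bins of their 3 strongest interactions, the strongest pathway genes and the genes most like ITGA4. Other genes were named after their values were seen. Alternatives covered thresholds, windows, motif forms, ranking and start definitions. Sequences were read with pyfaidx 0.9.0.4, intervals came from scipy 1.17.1, tables from pandas 2.3.3 and plots from matplotlib 3.10.9.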

Additional observations from a re-analysis of the deposited data

How the results depend on the processing

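No paired analysis was possible because the replicates were merged before deposit, and for the same reason neither replicate could be left out. The number of integrin interactions, 53, stayed between 40 and 49 with a q-value under 0.001 or 1e-05, a contact count of at least 20 or distances up to 1 Mb, and was 54 with merged bin ranges and 78 with a window of 100 kb. It fell to 29 with a window of 10 kb. Counting each merged group once, an alternative chosen after seeing the data, gave 51. The share of anchor bins with a motif, 29.4%, became 4.41% with TTACGTAA only (2.32% of all anchor bins) and 69.1% with 1 bin on each side (63.5% of all anchor bins), and 24% without ITGA4, also chosen after seeing the data. The number of interactions at a start, 26, was 8 with bins that hold a start and 8 with the start of the gene record. The strongest interaction of each of the 7 genes was the same by contact count, sumCC and P value, but ITGA6 and ITGAL had only 1 to rank. In ITGA4, 2 interactions of a merged group shared the largest sumCC, 802, and the contact count broke the tie. The ratio of ITGA4 was 9.4 against interactions within 20% of its distance. Its rank by number, 2071, was 2674 per Mb and 1574 around the start. That of ITGB1, 2942, was 4804 and 5027, and that of ITGB2, 4253, was 4154 and 2565. Contacts that did not pass the q-value threshold of the list were not analysed here.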

Other observations

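The 32 HLF motifs in the 68 anchor bins of the integrin interactions comprised 3 of the form TTACGTAA and 29 of the form TTATGTAA. In all anchor bins 1255 of 21182 motifs had the form TTACGTAA. A purine before and a pyrimidine after the motif, as in the longer HLF consensus, were found at 11 of the 32 sites (34.4%), beside 27.5% of the sites in all anchor bins. This count was chosen after the sites had been seen and was given no test.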
